A study of Solanum lycopersicum with 8 samples.

Results

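A set of 4 genes at the entry to flavonoid synthesis was examined in glands of type VI trichomes and in shaved leaves of tomato. They are the chalcone synthases CHS1 (Solyc09g091510) and CHS2 (Solyc05g053550), the chalcone isomerase CHI1 (Solyc05g010320) and a gene listed as chalcone isomerase-like (Solyc05g052240, CHI-like below). They were taken by identifier from the count files and are 4 of the 34725 genes in them. All plants were tomato (Solanum lycopersicum) of the cultivar M82, 5 weeks old, grown at 28 °C under 250 µE of light. The labels give 2 groups. The 4 trichome libraries, from glandular cells of leaf type VI trichomes, are labelled complemented line #4, and the 4 libraries of trichome-shaved leaf are labelled af mutant. Type VI trichomes are leaf hairs with a head of secretory cells, and af (anthocyanin free) is a tomato mutant whose defect lies in CHI1. Each tissue was collected 4 times. The labels' protocols take the shaved leaves from the same plants as the trichomes, which conflicts with a different genotype for each tissue. Tissue and labelled genotype cannot be told apart in any comparison below. These are bulk samples, in which more expressing cells and more RNA per cell also cannot be told apart.

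Chalcone synthase makes naringenin chalcone from a coumaroyl and several malonyl units, the step that commits carbon to flavonoids. Chalcone isomerase closes the chalcone into naringenin, a flavanone, from which flavonols and anthocyanins are made. Proteins of the chalcone isomerase-like class lack the isomerase activity, and in hop and Arabidopsis they bind chalcone synthase and raise its output of chalcone. Tomato glandular hairs are known to store flavonols, and af plants are known for low flavonoid and altered terpenoid content in these hairs.

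Gene counts totalled 24596280 to 26514416 per trichome library and 19209754 to 34941715 per leaf library. Of all genes, 20409 had enough counts for a test across tissues. The tissues were checked against marker genes. All 4 markers of type VI glands (PHS1, NDPS1, TPS12, MTS1) were higher in trichome, with summed levels of 9058 to 15843 CPM (read counts scaled to library size with TMM factors) in trichome libraries and 44.8 to 100.7 CPM in leaf libraries. All 7 markers of other glandular hairs, the acylsugar genes, were also higher there, at 115.4 to 176.5 CPM in trichome and 0.979 to 18.6 CPM in leaf. All 4 mesophyll markers were lower in trichome, at 1264 to 1721 CPM in trichome and 16870 to 24934 CPM in leaf. The phloem marker SUT1 had 1.11 to 2.32 CPM in trichome and 109.6 to 243.4 CPM in leaf. Of 3 cuticle markers of the epidermis, 1 was higher and 2 were lower in trichome, and their sums overlapped (371.7 to 620.7 CPM in trichome, 370.4 to 588.1 CPM in leaf).

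CHI1, the gene altered in af, comes first because it bears on the labels. In the 4 trichome libraries, labelled complemented, CHI1 had 1421, 1687, 1499 and 1531 CPM. In the 4 leaf libraries, labelled af, there were 284, 272, 120 and 99.2 CPM. Both sets of libraries therefore held CHI1 transcript, and every trichome library was above every leaf library. The underlying leaf counts were 5628, 7765, 3993 and 3242 reads, far above the limit of 3 counts that a count of 0 would allow. A count per gene reads neither a base change nor a change in splicing, nor does it separate reads of an introduced copy from those of the native gene. The CHI1 level alone therefore does not check the genotype labels.

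CHI1 was higher in trichome by 2.99 on the log2 scale (SE 0.38, adjusted p = 9.59e-05 in edgeR's quasi-likelihood test, Benjamini-Hochberg adjustment over all tested genes), with a mean of 1534 ± 111 CPM in trichome and 193.8 ± 97.5 CPM in leaf (SD, n = 4 each). It was higher in 4 of 4 collections, by 5.01-fold, 6.20-fold, 12.4-fold and 15.4-fold in collections 1 to 4. The gland level was nearly the same in all 4 trichome libraries (coefficient of variation 7.26%), whereas the leaf level varied more between libraries (coefficient of variation 50.3%). Scaled to gene totals without TMM factors, trichome replicate 4 was the lowest of the gland libraries for CHI1, at 1184 CPM against 1426 to 1564 CPM in the others, and the coefficient of variation was 12.1% for CHI1 and 10.3% for CHI-like, which was then the least variable of the 4 genes.

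The same direction held for the other 3 genes, and 4 of the 4 genes rose. Of all tested genes 72.4% were called, 33.9% as higher and 38.5% as lower in trichome. The median log2 fold change of the 4 genes was 3.52, against -0.09 over all tested genes. In 4 of the 4 genes all trichome libraries lay above all leaf libraries, as in 31.5% of tested genes.

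CHS1, a chalcone synthase, had 4190, 8492, 5920 and 11397 CPM in trichome libraries 1 to 4. Its leaf libraries had 216, 383, 58.7 and 71.2 CPM. The groups were far apart, and the leaf values fell into a higher pair (collections 1 and 2) and a lower pair (3 and 4). The log2 fold change was 5.36 (SE 0.74, adjusted p = 0.000159 in edgeR's test), or 6.01 without leaf replicate 2, 5.95 without collection 2 and 4.81 without collection 4. It was the widest difference of the 4 genes, and 2.39% of tested genes had a higher fold change. The 4 collections gave 19.4-fold, 22.2-fold, 100.8-fold and 160.0-fold. Ranked by CPM, which is not corrected for gene length, CHS1 stood at place 9 of all genes in trichome and at place 682 in leaf.

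CHS2, the other chalcone synthase, had 3346, 4779, 3166 and 5664 CPM in the trichome libraries. In the leaf libraries it had 527, 784, 242 and 193 CPM. No values overlapped between tissues, and collections 1 and 2 were again the higher leaf libraries. CHS2 was higher in trichome by 3.28 on the log2 scale (SE 0.50, adjusted p = 0.000298 in edgeR's test), and stood at place 20 by CPM in trichome and at place 234 in leaf. CHS1 and CHS2 are related copies, and how the authors' counting treated reads that match both is not given in the sources used here, so their split is uncertain.

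CHI-like had 2355, 3248, 2580 and 3317 CPM in the trichome libraries. The leaf libraries held 290, 273, 128 and 163 CPM. The tissues did not overlap, and the leaf libraries of collections 1 and 2 were once more above those of 3 and 4. Its log2 fold change was 3.75 (SE 0.34, adjusted p = 1.23e-05 in edgeR's test). All 4 genes kept their direction and their call in each of the 21 alternative settings of the fit.

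**Figure D1:**
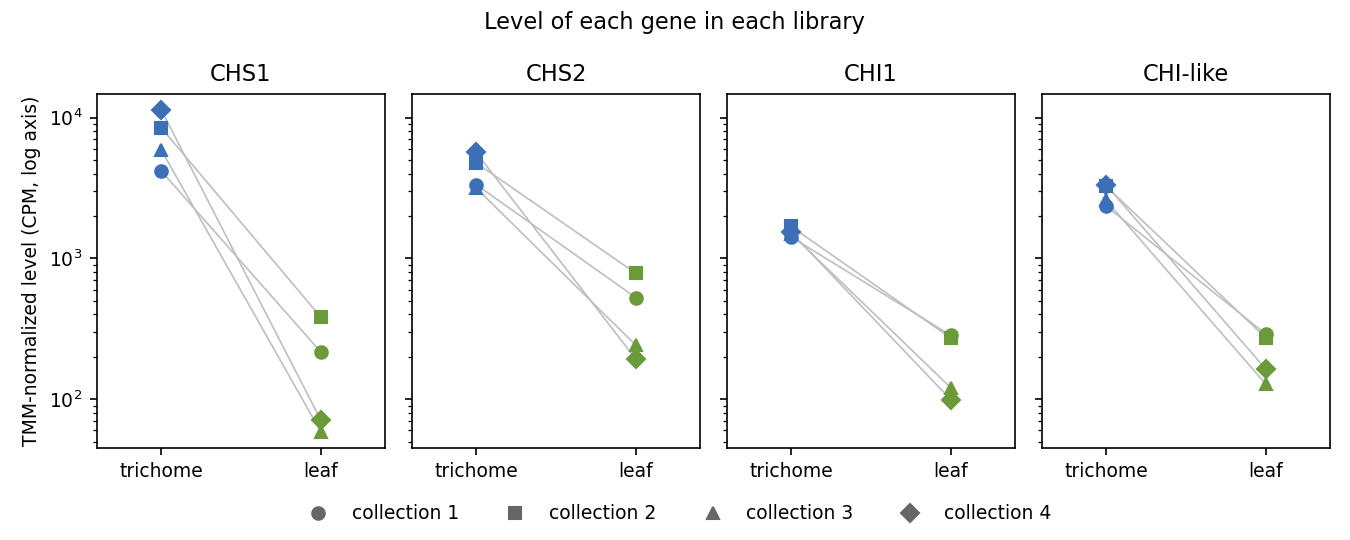
TMM-normalized level (CPM, log axis) of CHS1, CHS2, CHI1 and CHI-like in each of 4 trichome and 4 leaf libraries, with a marker shape for each collection and lines joining libraries of the same collection number. Trichome points lie above leaf points in each panel, CHI1 lies at 1421 to 1687 CPM in trichome, and CPM is not corrected for gene length, so heights should not be compared between panels.

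Together the 4 genes took 1.14%, 1.69%, 1.35% and 1.69% of all gene counts in trichome libraries 1 to 4. In leaf libraries 1 to 4 they took 0.136%, 0.212%, 0.0619% and 0.0492%. Within these counts the makeup differed between tissues. CHS1 made up 37.0% to 52.0% of the counts of the 4 genes in trichome and 10.7% to 22.4% in leaf. CHS2 made up 24.0% to 29.6% in trichome and 36.6% to 45.8% in leaf. CHI1 made up 6.99% to 12.6% in trichome and 15.9% to 21.9% in leaf. For these 3 genes the tissues did not overlap, whereas CHI-like overlapped, with 15.1% to 20.8% in trichome and 15.9% to 31.01% in leaf.

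Ratios of counts within a library do not depend on library size or scaling. They do depend on gene length, which was taken to be the same in both tissues, so only the difference of a ratio between tissues is compared. For CHI1 this was not checked, because counts do not separate an introduced copy from the native gene. All 6 pairs of the 4 genes were tested with an exact two-sided permutation test of the tissue labels (70 arrangements, smallest p 0.0286), and p-values were adjusted over the 6 pairs. The pairs share genes, so the 6 tests are not independent of each other. An adjusted p under 0.05 was possible only where several pairs reached the smallest p together.

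The ratio of CHS1 to CHS2 counts was 1.25, 1.78, 1.87 and 2.01 in trichome libraries 1 to 4. It was 0.411, 0.489, 0.243 and 0.370 in leaf libraries 1 to 4. CHS1 therefore had more counts than CHS2 in each gland library and fewer in each leaf library. The ratio was 4.64-fold higher in trichome (difference of log2 ratios 2.22, exact permutation p = 0.0286, adjusted p = 0.0429), in the same direction in 4 of 4 collections.

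The ratio of CHS1 to CHI1 counts was 2.95, 5.04, 3.95 and 7.44 in trichome. It was 0.763, 1.41, 0.488 and 0.718 in leaf. Relative to CHI1, CHS1 was thus higher in each gland library than in any leaf library, and 5.84-fold higher on average (difference of log2 ratios 2.54, exact permutation p = 0.0286, adjusted p = 0.0429). Relative to CHI-like, CHS1 was 3.63-fold higher in trichome (1.86 on the log2 scale, exact permutation p = 0.0286, adjusted p = 0.0429), with ratios of 1.78 to 3.44 in trichome and 0.436 to 1.41 in leaf.

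The ratio of CHI1 to CHI-like counts was 0.603, 0.519, 0.581 and 0.462 in trichome. It was 0.980, 0.997, 0.942 and 0.608 in leaf. It was lower in each trichome library than in any leaf library, although leaf replicate 4 came close to trichome replicate 1. The mean log2 ratio was lower in trichome by 0.68 (-0.68, exact permutation p = 0.0286, adjusted p = 0.0429), which is 0.623 of the leaf ratio. In the libraries labelled af, CHI1 thus made up more of the joint CHI1 and CHI-like counts (37.8% to 49.9%) than in the libraries labelled complemented (31.6% to 37.6%).

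The ratios of CHS2 to CHI1 and to CHI-like overlapped between tissues. The CHS2 to CHI1 ratio was 2.11 to 3.70 in trichome and 1.86 to 2.88 in leaf, and the difference of 0.33 on the log2 scale did not pass the test (exact permutation p = 0.200, adjusted p = 0.240). The CHS2 to CHI-like ratio was 1.23 to 1.71 in trichome and 1.18 to 2.87 in leaf, and its difference of -0.35 did not pass either (exact permutation p = 0.257, adjusted p = 0.257). Without leaf replicate 4 the CHS2 to CHI-like difference was -0.57 and passed (exact permutation, adjusted p = 0.0343). The 4 ratios that passed with all libraries kept their call without any one leaf library (adjusted p = 0.0343 to 0.0429, exact permutation), but not without any one trichome library (adjusted p = 0.0857). The number of arrangements falls equally in both cases, so it does not account for this contrast. The tissues still did not overlap in these 4 ratios. With labels exchanged only within collections, 16 arrangements are possible and the smallest p is 0.125, which the 4 ratios that passed the first test all reached (adjusted p = 0.188).

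**Figure D2:**
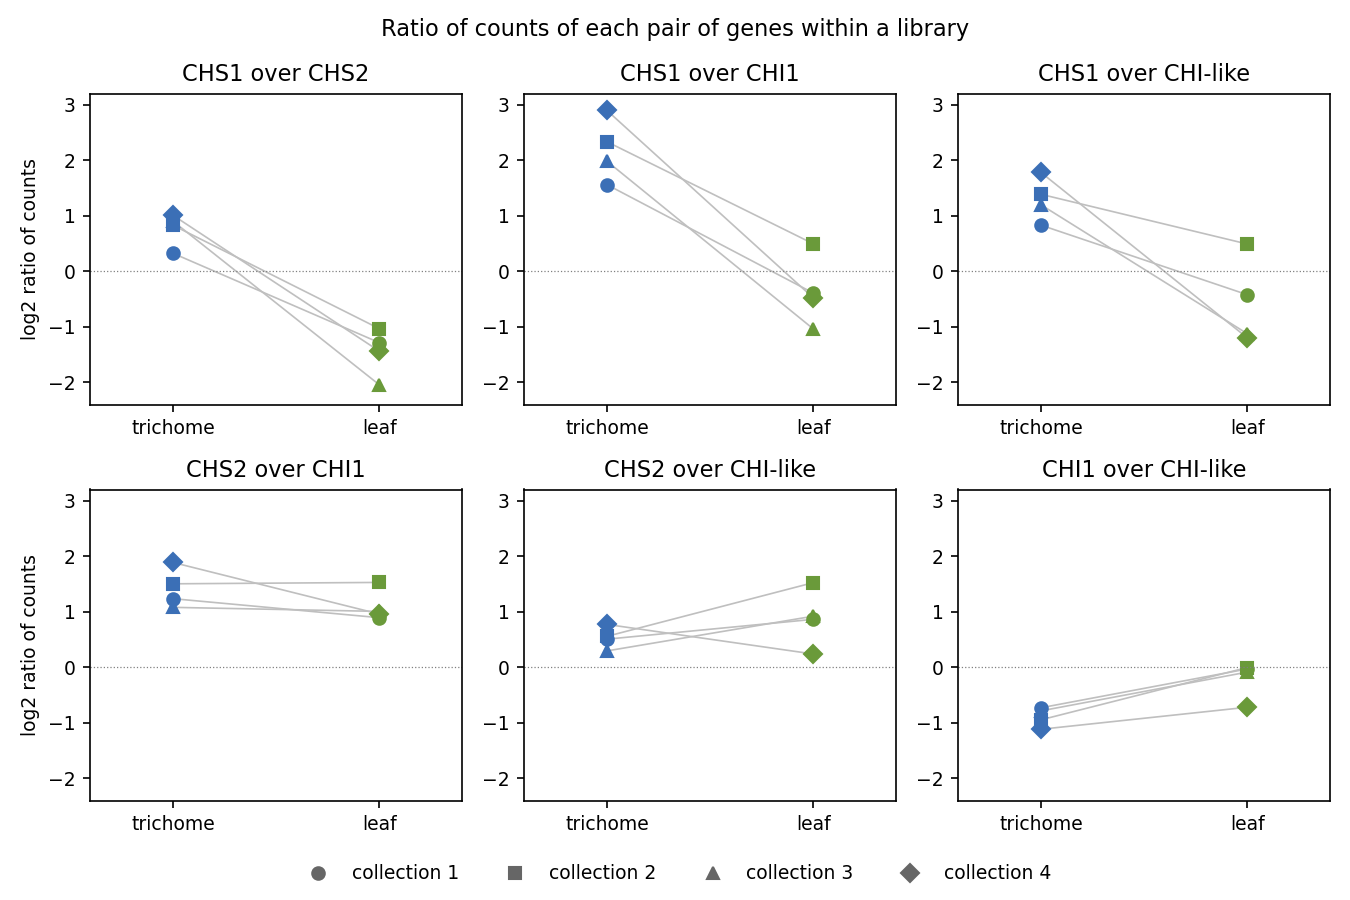
Log2 ratio of counts for each of the 6 pairs of genes in each trichome and leaf library, with a marker shape for each collection. CHS1 over CHS2, CHS1 over CHI1, CHS1 over CHI-like and CHI1 over CHI-like do not overlap between tissues, while the ratios of CHS2 to CHI1 and of CHS2 to CHI-like do.

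The leaf levels were set beside those of gland markers in the same libraries. As a share of the trichome level of the same collection, the summed type VI gland markers in leaf came to 0.953%, 0.745%, 0.384% and 0.513% in collections 1 to 4. CHS1 in leaf came to 5.16%, 4.51%, 0.992% and 0.625%. CHS2 came to 15.7%, 16.4%, 7.64% and 3.40%, and CHI1 to 19.96%, 16.1%, 8.04% and 6.48%. CHI-like came to 12.3%, 8.39%, 4.96% and 4.92%. In each collection all 4 genes had a higher leaf share than the summed gland markers. Of those markers, PHS1, NDPS1 and TPS12 had shares of 0.0805% to 1.04%, but the linalool synthase MTS1 had 3.63% to 14.6%, above CHS1 in collections 1, 3 and 4, above CHI-like in collections 3 and 4, and above all 4 genes in collection 4. The summed acylsugar genes of other glandular hairs came to 2.50%, 10.5%, 3.34% and 0.848%, above CHS1 in collections 2, 3 and 4 and above CHI-like in collection 2. No gland marker of either list was at 0 in all leaf libraries, and 2 of the acylsugar genes were at 0 in at least one.

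In leaf, PHS1, NDPS1 and TPS12 were ordered collection 2, 1, 3, 4 from high to low, as was CHS2. The fourth type VI marker, MTS1, ran otherwise, with its highest leaf level in collection 4 (66.9 CPM) and its lowest in collection 2 (10.8 CPM). The other 3 genes also had collections 1 and 2 above 3 and 4, but CHS1 and CHI-like were lowest in collection 3, and CHI1 and CHI-like were highest in collection 1. The part of gland material in the members' leaf levels was not tested. The other way round, the summed mesophyll markers in trichome libraries kept 6.02% to 8.15% of their leaf level, whereas the 4 genes were higher in trichome than in leaf. That sum rested on RBCS-2A and CAB4, whose mean trichome levels were 6.72% and 11.5% of their leaf means. The share was 4.76% for plastocyanin and 0.113% for glycolate oxidase, an enzyme of photorespiration.

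**Figure D3:**
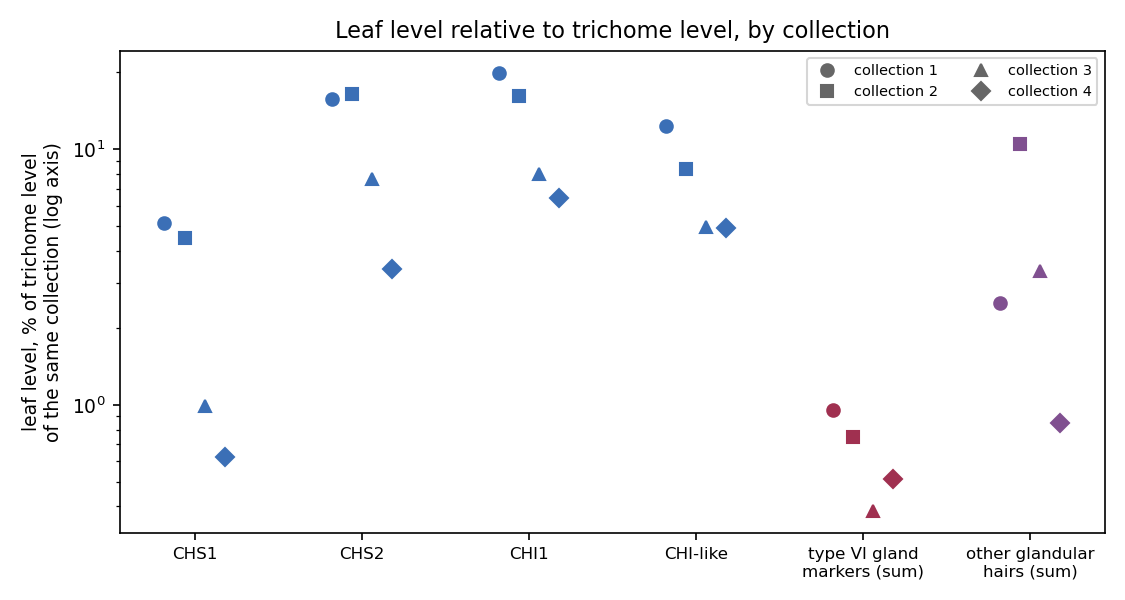
Level in leaf as a percentage of the level in trichome of the same collection (log axis) for CHS1, CHS2, CHI1 and CHI-like and for the summed markers of type VI glands and of other glandular hairs. The type VI sum stays under 1% in each collection, below the 4 genes, whose highest share is 19.96% for CHI1 in collection 1.

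The rest of the pathway was described from lists of 6 later enzymes and 7 regulators. Of the 6 enzymes 3 rose, 2 fell and 1 was not called in edgeR's test, with a median log2 fold change of 1.88. The risers were F3H, F3'H and FLS. F3H (Solyc02g083860), which hydroxylates naringenin, averaged 2539 ± 432 CPM in trichome and 151.4 ± 108 CPM in leaf (SD, n = 4 each; log2 4.07). F3'H (Solyc03g115220), which adds a hydroxyl to the B ring, had a log2 fold change of 5.83. Flavonol synthase, listed under the name FLS (Solyc11g013110), had one of 3.73. F3'5'H (Solyc11g066580), the hydroxylase of the delphinidin and myricetin series, overlapped between tissues and was not called (4.34 to 19.6 CPM in trichome, 0.0612 to 40.9 CPM in leaf, adjusted p = 0.984).

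Both enzymes called lower belong to the anthocyanin branch: DFR (Solyc02g085020) reduces dihydroflavonols, and the next enzyme is ANS (Solyc08g080040). DFR had 0.227 to 1.38 CPM in trichome and 0.245 to 95.8 CPM in leaf, and ANS had 2.53 to 3.64 CPM in trichome and 1.44 to 100.4 CPM in leaf. Each was higher in trichome in 1 of 4 collections, collection 4, and each reached its highest level in leaf replicate 2. The log2 fold change of DFR was -5.41 (adjusted p = 0.00726), or -3.55 without that library, and limma-voom did not call it (adjusted p = 0.252). That of ANS was -3.24 (adjusted p = 0.0351), or -0.41 without that library (adjusted p = 0.431) and -1.35 with the replicate block (adjusted p = 0.223), both without a call. In all, the ANS call was lost in 10 of 19 alternatives. These included limma-voom (adjusted p = 0.391) and leaving out any one trichome library (adjusted p = 0.0706 to 0.0769, edgeR's test).

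Of the 7 regulators 6 were tested, of which 2 rose, 2 fell and 2 were not called, with a median log2 fold change of 0.04. MYB12 (Solyc01g079620), which activates flavonol genes including chalcone synthase, had 100.6, 123.5, 87.1 and 107.5 CPM in the trichome libraries. The leaf libraries held 11.8, 22.1, 5.01 and 8.69 CPM. Its log2 fold change of 3.14 (SE 0.41, adjusted p = 0.000117) lay between those of CHI1 and CHS2, and its leaf libraries of collections 1 and 2 were again above 3 and 4. HY5 (Solyc08g061130), a light-dependent activator, rose by 1.69 on the log2 scale (adjusted p = 0.00562), also with collections 2 and 1 highest in leaf. AN2 (Solyc10g086250), a MYB regulator of anthocyanins, had 8.56 to 13.7 CPM in trichome and 9.18 to 34.8 CPM in leaf. Its call (log2 -0.96, adjusted p = 0.0462) was lost in 11 of 21 alternatives, such as the replicate block (adjusted p = 0.0845). A gene listed as AN1 (Solyc09g065100), a bHLH partner of such MYB factors, fell (log2 -6.47, adjusted p = 0.000631 in edgeR's test). It had 4, 0, 0 and 0 counts in the trichome libraries and 64, 245, 122 and 21 counts in the leaf libraries. JAF13 and a gene listed as AN11 were not called, and ANT1 had 1 count in total over the 8 libraries.

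**Figure D4:**
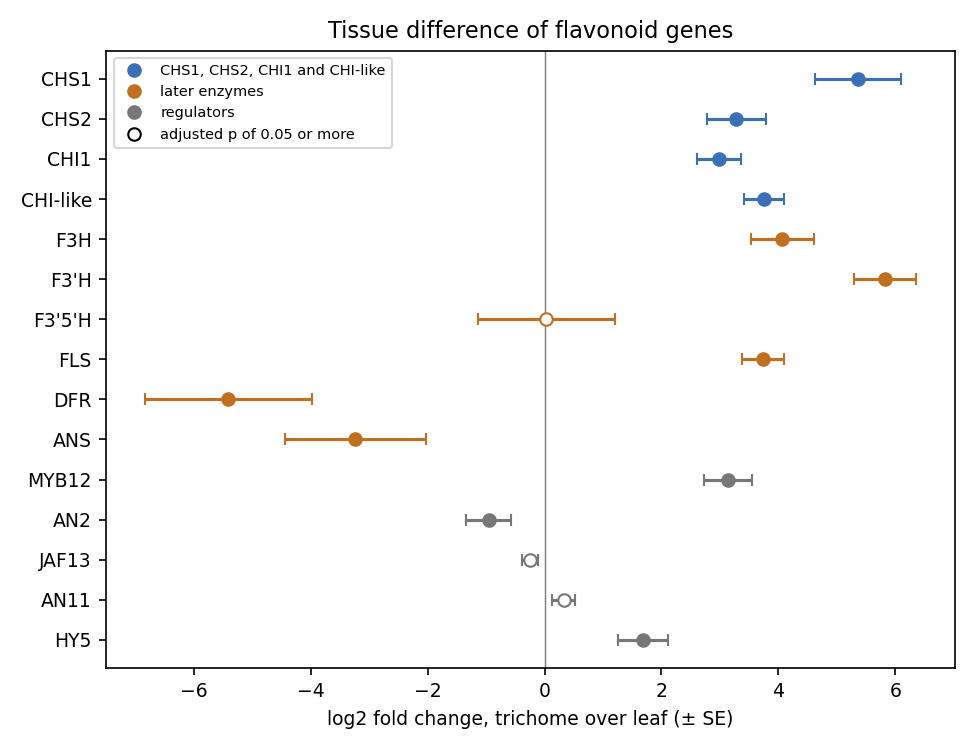
Log2 fold change, trichome over leaf, with its standard error, for CHS1, CHS2, CHI1 and CHI-like, 6 later enzymes and 5 of the regulators. The regulators not drawn are AN1, which was tested and lay at -6.47, and ANT1, which was not tested. Open points have an adjusted p of 0.05 or more. The 4 genes lie at 2.99 to 5.36, and the anthocyanin enzymes DFR and ANS lie below 0 with wide errors.

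The levels of the 4 genes were also followed across collections within each tissue. In leaf, deviations of log2 CPM from the tissue mean ran from -1.21 to 1.48 for CHS1 and from -0.81 to 0.70 for CHI1, with collections 1 and 2 above 3 and 4 for all 4 genes. In trichome they ran from -0.74 to 0.70 for CHS1 but only from -0.11 to 0.14 for CHI1, which was almost flat. Collections 2 and 4 were the higher gland libraries for all 4 genes with TMM factors, whereas with library size alone trichome replicate 4 was the highest for CHS1 (8811 CPM) and the lowest for CHI1 (1184 CPM). Over the 8 libraries together, the deviations correlated at r = 0.866 to 0.963 between the 6 pairs, highest for CHS1 with CHS2. These values are a description in which the wider leaf deviations weigh most, and the libraries share their collections and scaling. Set among 11750 other genes with at least 10 CPM on average, CHS2 took place 4 in likeness to CHS1, and at the other end CHI-like took place 129 in likeness to CHS2. The gene most like CHS2 was Solyc09g064870 (r = 0.993), with 55.8 ± 4.87 CPM in trichome and 6.10 ± 1.74 CPM in leaf. The gene most like CHI1 was Solyc05g012970 (r = 0.977), with 1902 ± 222 CPM in trichome and 11.5 ± 6.39 CPM in leaf. Likeness in this measure does not fix the direction between tissues. Solyc01g068620, the second most like CHI-like (r = 0.976), was lower in trichome (16.2 ± 1.02 CPM) than in leaf (41.7 ± 6.98 CPM; SD, n = 4 each).

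The genes next to the 4 in the numbering of identifiers were far lower in counts. Beside CHI1, Solyc05g010310 had 1 count over the 4 trichome libraries and 0 over the 4 leaf libraries, and Solyc05g010330 had 65 counts in trichome and 0 in leaf. The reference table places a gene named CHI2 directly before CHI1, but it pairs no identifier of the files with that name. Of all 8 neighbours 4 had too few counts for a test, 3 were higher in trichome and 1 was lower. Over all tested genes, 33.9% were called higher and 38.5% lower. Beside CHI-like, Solyc05g052250 (higher) had 357 counts in trichome and 1 in leaf, and Solyc05g052230 (lower) had 83 in trichome and 322 in leaf. The neighbour before CHS1 averaged 51.4 ± 11.1 CPM in trichome and 18.4 ± 2.04 CPM in leaf, and the one before CHS2 averaged 103.2 ± 7.29 CPM in trichome and 14.9 ± 4.93 CPM in leaf.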

How the data were processed

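Messenger RNA libraries of 4 trichome and 4 leaf samples were used. The authors deposited raw HTSeq counts of reads per gene, per the file headers' summary lines and the labels. The submitters' processing notes name Trimmomatic, TopHat2, SAMtools and HTSeq. What versions, genome build, annotation and strand setting they used is not given in the sources used here, so overlapping and antisense genes cannot be told apart. HTSeq's 5 summary lines took 21.1% ± 2.61 of counts in trichome and 13.3% ± 0.829 in leaf (SD, n = 4 each) and were left out. Counts were tested with edgeR 4.0.16 (quasi-likelihood, TMM, filterByExpr, no block; R 4.3.3), and a gene was called at an adjusted p under 0.05. Standard errors were derived from the F statistic and are approximate. The fit was tested on simulated data.

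Members, lists and tests were chosen with earlier results of these data known. Named genes are the 4 genes, the fixed lists, neighbours in the numbering and, per gene, the 2 most like it in deviations of log2(CPM + 0.5) from the tissue mean; of the like genes and neighbours only examples are named. The files hold no names, and 0 IDs matched the reference table (SLM_r2.1). Of 17 listed names 13 are in that table, and 13 lie on the same chromosome within 5 percentage points of position; the other 4 are CHI-like and the genes introduced as "listed". Marker names were not checked, and which of the neighbouring IDs is PHS1 and which NDPS1 is unsettled. No sequences were used, and the planned search of promoters for motifs was not run. Gene lengths were not used.

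Both tissues of a collection came off the same plants per the labels' protocols, which the genotype labels conflict with. Same-numbered libraries were taken as pairs on the strength of those protocols. The main fit and the main permutation test leave the pairing out, and it enters as an alternative in both. Same-numbered deviations correlated at 0.0990 to 0.188 and others at -0.197 to 0.135. These ranges overlapped, so they do not settle the pairing. The series' design text calls the 4 collections independent, without saying whether plantings differed; p-values measure the spread between these samples. The alternatives tried were upper-quartile factors, RLE factors, library size alone, 2 filters, DESeq2 1.42.0, limma-voom (limma 3.58.1), the collection as a replicate block, leaving out the 10 most abundant genes, and leaving out each library or collection. Limits from counts hold for counting error alone, because PCR copies of a molecule were not marked.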

Additional observations from a re-analysis of the deposited data

Results flagged for a closer look

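Among 46 groups of 4 libraries checked, 8 had one library far from the other 3, by a cutoff meant to flag about 1 in 20 groups by chance. The groups share libraries and genes and are not independent, so the number flagged does not measure an excess over chance. In leaf replicate 2 the count ratio of CHS2 to CHI1 was 2.88, against 1.86 to 2.01 in the other leaf libraries. The same library was far above the others for F3'5'H (40.9 CPM, others 0.0612 to 4.86), DFR (95.8 CPM, others 0.245 to 14.6) and ANS (100.4 CPM, others 1.44 to 6.03). In leaf replicate 4 the count ratio of CHI1 to CHI-like was 0.608, against 0.942 to 0.997 in the other leaf libraries. AN11 had 32.4 CPM in trichome replicate 4, against 20.6 to 22.6 in the other trichome libraries. The remaining cases rest on a few reads: ANT1 had 0.0504 CPM in leaf replicate 1 and AN1 had 0.151 CPM in trichome replicate 1, and both were at 0 in the other 3 libraries of their tissue.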

How the results depend on the processing

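The log2 fold changes of CHS1, CHS2, CHI1 and CHI-like kept their direction and call under all 21 alternatives. With a library or collection left out they ran from 4.81 to 6.01, 2.85 to 3.72, 2.76 to 3.26 and 3.55 to 4.02, and under the other alternatives from 5.02 to 5.67, 2.97 to 3.45, 2.73 to 3.14 and 3.50 to 3.82. The replicate block (log2 5.67 for CHS1, 3.14 for CHI1) changed no call among these 4; among the listed genes it ended those of ANS and AN2. Library size alone shifted the median log2 fold change of all tested genes by -0.215. Genes called numbered 14780, and 10944 to 16419 under the alternatives.

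The differences in log2 ratio do not depend on scaling. With labels exchanged within collections, a replicate block, 4 differences (CHS1 over CHS2 2.22, CHS1 over CHI1 2.54, CHS1 over CHI-like 1.86, CHI1 over CHI-like -0.68) had an adjusted p of 0.188, because 16 arrangements allow no p below 0.125. Leaving out libraries gave 1.97 to 2.42, 2.27 to 2.83, 1.49 to 2.21 and -0.85 to -0.60, with adjusted p of 0.0343 to 0.0429 without one leaf library, 0.0857 without one trichome library and 0.120 to 0.150 without a collection. Without a collection too few arrangements remain for any p to fall under 0.05, so those tests cannot decide. The CHS2 over CHI-like difference ran from -0.65 to -0.14 and passed without leaf replicate 4 (-0.57). F3'5'H, not called in any of these settings, had a log2 fold change of 0.03, but 2.25 with limma-voom, 1.59 with the replicate block, -0.027 with RLE factors, -0.10 with upper-quartile factors, -0.31 with library size alone, -0.070 with a filter of 5 CPM, -0.031 with DESeq2 and -0.39 to 2.29 with a library or collection left out; the cause was not tested. JAF13 was called lower in 3 of 21 alternatives. The genes most like each member changed with the measure: with the tissue difference included, 1 of 2 was shared for CHS1 and for CHS2 and 0 of 2 for CHI1 and for CHI-like. At these depths a count of 3 stood for 0.111 to 0.148 CPM in trichome and 0.0905 to 0.151 CPM in leaf.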
